A study of Mus musculus with 6 samples.

Results

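A set of 9 genes of nicotinamide adenine dinucleotide (NAD) metabolism was followed in mouse gastrocnemius RNA: Nmrk2 and its relative Nmrk1, Nampt, Nmnat1, Nmnat3, Nadk, Nadk2, Sirt1 and Sirt3. They were taken by symbol from the authors' table of 11815 genes, and all 9 were in it. The set was chosen by its place in NAD metabolism and selected on measured differences between genotypes in these same libraries, so the members' differences between genotypes are given as a description, with no p-value. The gastrocnemius is the large, mainly fast-twitch muscle at the back of the lower leg. Libraries came from wild-type (WT) mice and from mice without the non-coding RNA gene lnc-ORA (KO), 3 of each genotype. The KO mice carried a germline CRISPR deletion of 5147 bp that takes out the whole lnc-ORA transcript on a C57BL/6 background, and they were 15 weeks old. An age for the WT mice is not stated separately, nor is the number of founder lines. The study asked how loss of lnc-ORA affects the fibre types of leg muscle.

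NAD carries electrons in energy metabolism and is also consumed by enzymes such as sirtuins, so cells must keep making it. Skeletal muscle makes most of its NAD by salvage. Nampt turns nicotinamide into nicotinamide mononucleotide, the nicotinamide riboside kinases Nmrk1 and Nmrk2 make the same product from nicotinamide riboside, and the Nmnat enzymes turn it into NAD. Nadk and Nadk2 then phosphorylate NAD to NADP, and the deacetylases Sirt1 and Sirt3 use NAD up. Nmrk2 is known as the kinase of striated muscle, while Nmrk1 is found in most tissues.

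The start regions of the kinase pair and of Nampt are shown because all 3 genes supply the same intermediate and Nmrk2 exceeded Nampt in some libraries and not in others. RefSeq held start regions for 8 of the 9 members (build GRCm38.p6, 250 bases before the start and 50 after), all but Nadk2. Capitals mark CANNTG, the E-box letters that bind myogenic and clock factors, and TATAAA, the TATA box letters, searched on both strands. The Nmrk2 region lies on the minus strand at chr10:81201988-81202287, that of Nmrk1 on the plus strand at chr19:18631766-18632065, and that of Nampt on the plus strand at chr12:32820085-32820384.
Nmrk2: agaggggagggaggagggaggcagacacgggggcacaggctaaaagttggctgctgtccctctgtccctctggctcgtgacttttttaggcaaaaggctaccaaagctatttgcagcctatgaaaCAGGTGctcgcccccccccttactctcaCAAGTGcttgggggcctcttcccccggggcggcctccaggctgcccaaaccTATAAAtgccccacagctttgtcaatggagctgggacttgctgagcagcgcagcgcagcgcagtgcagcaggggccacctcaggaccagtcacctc
Nmrk1: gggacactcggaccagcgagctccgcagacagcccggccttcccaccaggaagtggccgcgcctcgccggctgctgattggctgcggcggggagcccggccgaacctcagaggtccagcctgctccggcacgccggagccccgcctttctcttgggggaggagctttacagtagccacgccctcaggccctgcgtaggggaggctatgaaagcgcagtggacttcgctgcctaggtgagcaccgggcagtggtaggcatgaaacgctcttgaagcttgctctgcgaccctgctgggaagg
Nampt: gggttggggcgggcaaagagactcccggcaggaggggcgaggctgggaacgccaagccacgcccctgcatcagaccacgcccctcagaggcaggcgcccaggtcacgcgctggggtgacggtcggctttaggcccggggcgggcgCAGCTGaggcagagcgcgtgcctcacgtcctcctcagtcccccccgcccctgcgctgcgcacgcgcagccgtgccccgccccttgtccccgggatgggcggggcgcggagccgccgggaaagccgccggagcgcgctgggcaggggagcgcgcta
Nmrk2 had 2 CANNTG matches, which began 125 and 97 bases before the start, and a TATAAA match 46 bases before it. Nampt had 1 CANNTG match, 105 bases before the start, and Nmrk1 had no match to either motif. Among 32851 RefSeq start regions of this length, 13.6% held TATAAA and 72.3% held CANNTG. The form of CANNTG that clock factors prefer, CACGTG, was in none of these 3 regions, in 2 places at Sirt1 and in 1 place in 1 of the 2 regions of Nadk, against 7.2% of all regions. AGGTCA, the nuclear receptor half-site letters, matched once at Nampt and once at Nmnat3, against 16.3% of all regions. GC content was 60.7% at Nmrk2, 67.3% at Nmrk1 and 76.3% at Nampt, with a median of 52.7% over all regions.

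Values were reads per kilobase of gene per fixed number of counted reads (RPKM). Whole reads could be recovered from them, with library totals of 54370181 to 69693905. All 7 markers of skeletal muscle fibres were present, as the tissue label calls for. They summed to 75336 to 83156 RPKM in the WT libraries and to 85817 to 90384 RPKM in the KO libraries. Every KO sum was thus above every WT sum, while none of the 7 markers passed in limma. The 7 slow fibre markers ranged from 151 RPKM in WT replicate 3 to 978 in WT replicate 2. None of the 5 adipocyte markers was listed, and 3 of the 6 immune markers were, at a summed 2.84 to 6.65 RPKM. The level of lnc-ORA was not analysed here, so the genotype labels were taken as given. Nothing in the labels ties a library to a single mouse, so errors and p-values measure the spread between these libraries only. Of 7574 genes tested with limma, 290 were higher and 1021 lower in KO at an adjusted p under 0.05. That split rests on the scaling, with 680 higher and 613 lower once the 10 most abundant genes were left out of the totals. The median gene lay at -0.09 on the log2 scale, and at 0.02 with those totals.

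Nmrk2 stood out from the other members by its level in KO muscle and by its spread in WT muscle. It was at 7.22, 7.98 and 25.9 RPKM in WT replicates 2, 3 and 4, and at 45.5, 35.0 and 40.3 RPKM in KO replicates 1, 2 and 3. All 3 KO libraries were above all 3 WT libraries, but the lowest KO value was only 1.35 times the highest WT value. The WT level was 13.7 ± 10.6 RPKM and the KO level 40.2 ± 5.27 RPKM (SD, n = 3 each), a ratio of 2.94. On the log2(RPKM + 1) scale the difference was 1.71 (SE 0.40), or 1.80 above that of the median gene, the 8th highest of the 7574 tested genes. Its position in the order of all genes in the table moved from 2570 in WT replicate 2 to 513 in KO replicate 1. In bulk tissue, more cells that carry a transcript and more transcript per cell cannot be told apart.

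WT replicate 4 set much of that spread. The coefficient of variation of Nmrk2 was 77.2% in WT and 13.1% in KO, beside medians of 11.3% and 8.05% over all tested genes, and 0.106% of tested genes varied more among the WT libraries. Without WT replicate 4 the WT mean was 7.60 RPKM, the ratio of KO to WT was 5.30 and the log2 difference 2.26 (SE 0.12). Without WT replicate 2 or 3 the log2 difference was 1.40 (SE 0.39) or 1.46 (SE 0.44). Without KO replicate 1, 2 or 3 it was 1.62, 1.80 or 1.70, with an SE of 0.47 or 0.48. WT replicate 4 was also the WT library nearest the KO mean for 770 of the 1311 called genes (58.7%) and for 45.9% of all tested genes. The 7 slow fibre markers summed to 978, 151 and 613 RPKM in WT replicates 2, 3 and 4, and the part of fibre composition in the spread of Nmrk2 was not tested.

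The reads behind Nmrk2 numbered 798 to 5754 per library, so counting error was small beside the spread between libraries. The gene lies at 81198170 to 81202051 on chromosome 10, minus strand (GRCm38), and the antisense gene Atcayos overlaps it there. Of the 50-base stretches of the longest Nmrk2 transcript, 13.5% occur in transcripts of other genes, on either strand, and 12.2% in Atcayos. Strand handling in the counting was not given in the sources used here, so reads from the shared stretch cannot be told apart. Atcayos itself was at 11.2, 15.2 and 13.4 RPKM in WT and at 11.7, 10.9 and 11.8 RPKM in KO. Its groups overlapped, and its levels did not follow those of Nmrk2.

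**Figure D1:**
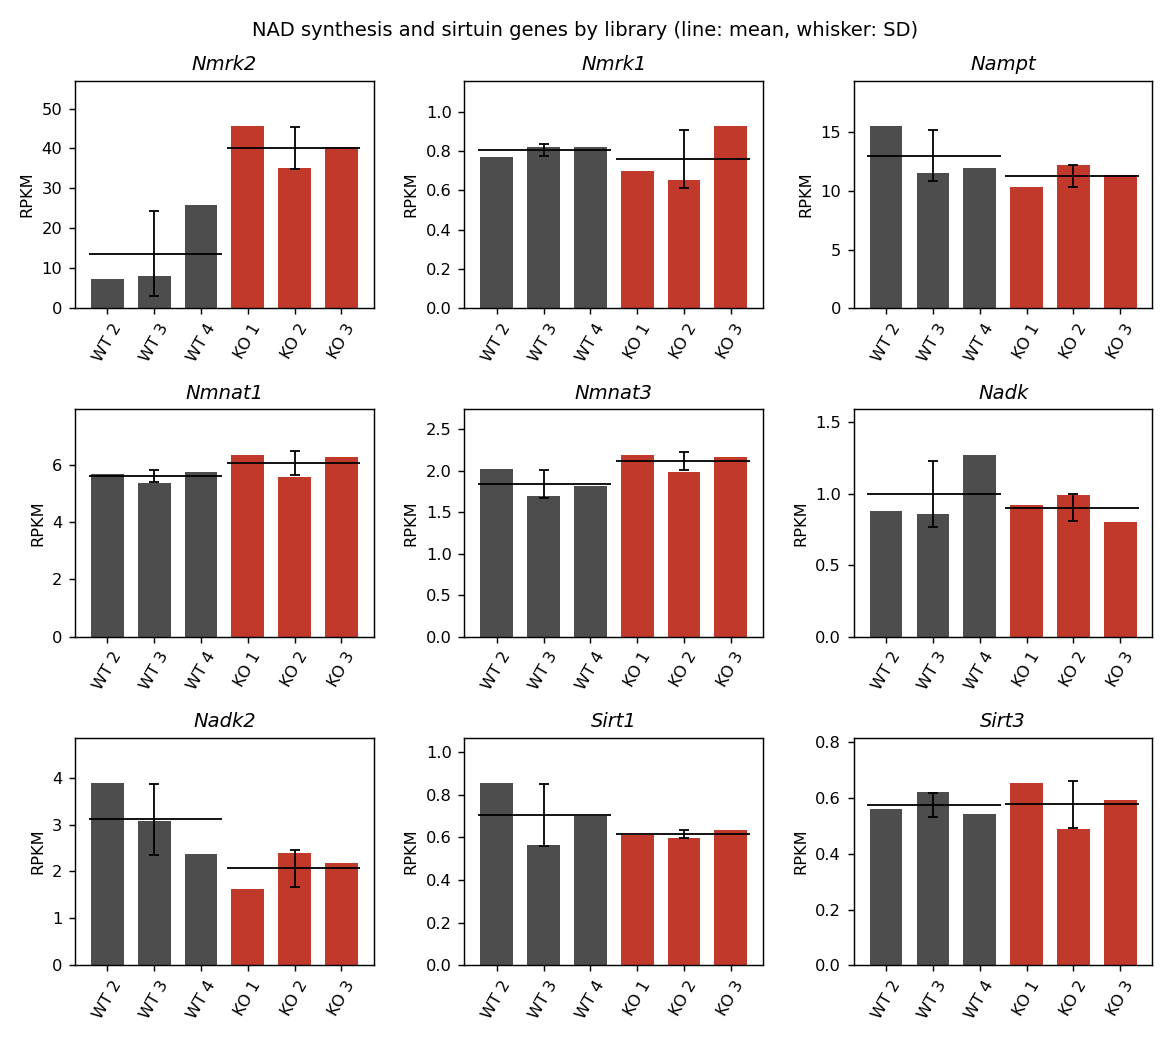
RPKM of each of the 9 members in every library, WT replicates 2 to 4 in grey and KO replicates 1 to 3 in red. Horizontal lines are group means and whiskers SDs (n = 3). The KO bars are all above the WT bars for Nmrk2 alone, and the Nmrk2 bar of WT replicate 4, at 25.9 RPKM, stands between the other WT bars and the KO bars.

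Nmrk1, the kinase with the same reaction, was low in both genotypes. It was at 0.768, 0.819 and 0.821 RPKM in WT and at 0.696, 0.651 and 0.924 RPKM in KO, from 121 to 189 reads per library. The KO values lay on both sides of the WT values, and the log2 difference was -0.04 (SE 0.07). Nmrk1 did not reach the level needed for the test. Its difference comes from a fit of all genes with no filter, where the median gene lay at -0.07. Of the 50-base stretches of Nmrk1, 6.6% also occur in other genes.

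The ratio of Nmrk2 to Nmrk1, both per length, was 9.40, 9.74 and 31.6 in WT replicates 2, 3 and 4 and 65.4, 53.8 and 43.6 in KO replicates 1, 2 and 3. Nmrk2 was thus the more abundant kinase transcript in all 6 libraries. The groups did not overlap, with a WT mean of 16.9 ± 12.7 and a KO mean of 54.2 ± 10.9 (SD, n = 3 each). The KO mean was 3.21 times the WT mean, and 5.67 times without WT replicate 4.

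Nampt, the rate-limiting enzyme of salvage from nicotinamide, varied less between libraries than Nmrk2. It was at 15.5, 11.5 and 12.0 RPKM in WT and at 10.3, 12.2 and 11.4 RPKM in KO. The groups overlapped, with WT replicate 2 the highest. Means were 13.0 ± 2.18 and 11.3 ± 0.952 RPKM, and the log2 difference was -0.18 (SE 0.12), or -0.09 relative to the median gene. It was -0.05 without WT replicate 2, -0.06 with equal library medians and -0.04 with totals without the 10 most abundant genes. The WT library with the most Nampt also had the highest summed endothelial markers, 28.6 RPKM beside 14.4 to 19.1 in the other 5 libraries, and the highest immune markers, 6.65 beside 2.84 to 6.20. Their part in the Nampt level was not tested.

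The order of Nmrk2 and Nampt differed between libraries. Nmrk2 over Nampt was 0.467 and 0.695 in WT replicates 2 and 3, where Nampt was the higher. It was 2.17 in WT replicate 4 and 4.42, 2.87 and 3.54 in the KO libraries, where Nmrk2 was the higher. The lowest KO ratio was above the highest WT ratio.

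**Figure D2:**
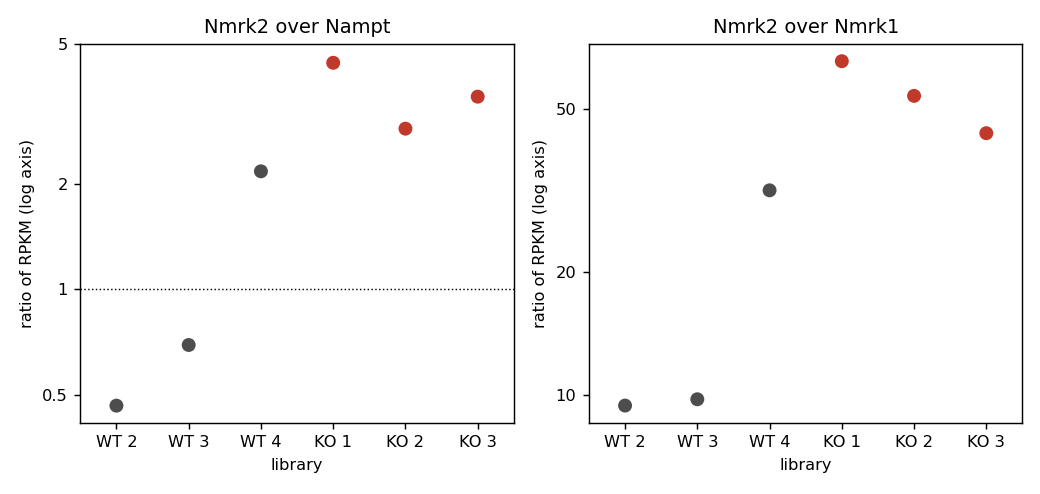
Ratio of Nmrk2 to Nampt (left) and to Nmrk1 (right), from RPKM on a log axis, for WT (grey) and KO (red) libraries. The dotted line marks equal levels; Nmrk2 lies below Nampt in WT replicates 2 and 3 and above it in the other 4 libraries.

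The Nmnat genes varied little. Nmnat1, the nuclear enzyme, was at 5.69, 5.37 and 5.75 RPKM in WT and at 6.34, 5.56 and 6.26 RPKM in KO. Nmnat3, known as the mitochondrial form, was at 2.02, 1.70 and 1.81 RPKM in WT and at 2.19, 1.99 and 2.17 RPKM in KO. In both genes KO replicate 2 fell within the WT range while KO replicates 1 and 3 were above it. The log2 differences were 0.09 (SE 0.08) for Nmnat1 and 0.13 (SE 0.08) for Nmnat3, or 0.18 and 0.22 relative to the median gene. Nmnat1 was the more abundant in every library, with a ratio to Nmnat3 of 2.79 to 3.18.

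The NAD kinases differed from each other. Nadk2, the mitochondrial NAD kinase, was at 3.88, 3.07 and 2.37 RPKM in WT and at 1.63, 2.40 and 2.18 RPKM in KO. The groups overlapped by WT replicate 4 and KO replicate 2, which were nearly equal. The means were 3.11 ± 0.759 and 2.07 ± 0.397 RPKM, and the log2 difference was -0.41 (SE 0.15), -0.55 without WT replicate 4 and -0.28 without WT replicate 2. Relative to the median gene it was -0.32. Nadk, the cytosolic kinase, was at 0.881, 0.854 and 1.27 RPKM in WT and at 0.917, 0.989 and 0.799 RPKM in KO. Its groups overlapped, with a log2 difference of -0.07 (SE 0.09) in the fit with no filter. WT replicate 4 was the lowest WT library for Nadk2 and the highest for Nadk, so Nadk2 over Nadk was 1.87 there and 4.41 and 3.60 in WT replicates 2 and 3.

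The sirtuins among the members were low in both genotypes. Sirt1, the nuclear deacetylase that acts on Ppargc1a protein, was at 0.853, 0.562 and 0.701 RPKM in WT and at 0.611, 0.597 and 0.635 RPKM in KO. Sirt3, the main mitochondrial deacetylase, was at 0.562, 0.622 and 0.542 RPKM in WT and at 0.653, 0.488 and 0.594 RPKM in KO. Groups overlapped for both genes, with ratios of the KO mean to the WT mean of 0.871 for Sirt1 and 1.01 for Sirt3. The log2 differences were -0.08 (SE 0.07) and 0.00 (SE 0.06) in the fit with no filter. The log2(RPKM + 1) scale understates the change of such low genes. Both genes rested on 162 to 317 reads per library.

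In KO the order of the members by mean RPKM was Nmrk2, Nampt, Nmnat1, Nmnat3, Nadk2, Nadk, Nmrk1, Sirt1 and Sirt3. The neighbours Nmnat3 and Nadk2 overlapped there, as did Nadk and Nmrk1, and Sirt1 and Sirt3. In WT, Nadk2 stood above Nmnat3 in all 3 libraries, and the ranges of Nmrk2 and Nampt overlapped. The filter for testing, 1 RPKM or more in 3 or more libraries, was met by 5 of the 9 members: Nmrk2, Nampt, Nmnat1, Nmnat3 and Nadk2. Nmrk2 was the 1 member past the limma threshold, as higher; over all tested genes 17.3% passed, 3.83% as higher. It was not past it once WT replicate 2 or 3 or KO replicate 1, 2 or 3 was left out. Without WT replicate 4, and with replicate number as a block, Nadk2 passed too, as lower. The block fit takes its differences without WT replicate 4 as well, so these settings are not independent. Groups that did not overlap were found for 1 of the 9 members, again Nmrk2, and for 38.2% of the genes in the table, with KO above WT for 8.29% and below it for 29.9%. The members were chosen with this contrast known, so nothing is read from these counts.

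Around the members, 68 further genes of NAD metabolism and its regulation were examined, of which 45 were in the table and 28 were tested. In limma 2 rose and 5 fell, 7.14% and 17.9% of those tested, beside 3.83% and 13.5% of all tested genes. The lists were drawn up with earlier results of these data known, so nothing about the pathway is read from these shares. The median log2 difference was -0.07, beside -0.09 over all tested genes. With totals without the 10 most abundant genes, 5 were higher and 4 lower.

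In salvage and transport, 2 of 5 tested genes fell and none rose. Aox1, the aldehyde oxidase that oxidises methylated nicotinamide, was at 3.16, 4.25 and 3.30 RPKM in WT and at 1.20, 1.40 and 1.31 RPKM in KO. The groups lay well apart, with a log2 difference of -0.98 (SE 0.10, adjusted p = 0.0016 in limma). Slc29a1, an equilibrative nucleoside transporter, was at 1.81, 1.98 and 1.76 RPKM in WT and at 1.10, 1.12 and 1.08 RPKM in KO. All KO values were below all WT values, and the log2 difference was -0.44 (SE 0.06, adjusted p = 0.00556 in limma). Slc25a51, the mitochondrial NAD carrier, did not pass (limma adjusted p = 0.488), with WT libraries at 2.21 ± 0.0652 RPKM and KO libraries at 2.38 ± 0.117 RPKM (SD, n = 3 each). The NADH pyrophosphatase gene Nudt12 (limma adjusted p = 0.0993) and the nucleotidase gene Nt5c3 (0.111) had lower values in every KO library without passing. Endothelial cells, which also express Slc29a1, had 1 of 5 tested markers lower, and their summed level was 17.8 to 28.6 RPKM in WT and 14.4 to 15.6 in KO. Of the 4 tested Schwann cell markers all 4 were lower in KO, with 5 of 6 listed and a summed level of 30.8 to 49.0 RPKM in WT and 6.98 to 9.69 in KO. The part of either cell type in the results for Slc29a1, Aox1 and the other genes that fell was not tested.

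The routes from tryptophan and nicotinic acid were hardly represented. Only 5 of 15 genes were in the table; Tdo2, Ido1, Qprt and Naprt were among those not listed. Of the 2 tested, Kyat1 and Got2, none passed in limma at the adjusted threshold, and 1 was lower at an unadjusted p under 0.05. Got2, a mitochondrial transaminase that also acts on kynurenine, had 15.7 ± 1.12 RPKM in the WT group against 13.4 ± 0.757 RPKM in the KO group (SD, n = 3 each), with an adjusted p of 0.116 in limma. The kynurenine aminotransferase Kyat3 was below the filter, at 0.385 ± 0.0978 and 0.191 ± 0.0226 RPKM. In the limma fit with no filter its adjusted p was 0.03, with a log2 difference of -0.21, and this was not tried under another scaling.

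Among other enzymes that consume NAD, 1 of 8 tested fell and none rose. Parp2, an ADP-ribosyltransferase of DNA repair, was at 3.40, 3.03 and 3.15 RPKM in WT and at 2.20, 2.49 and 2.52 RPKM in KO. Its groups did not overlap, with a log2 difference of -0.30 (SE 0.08, adjusted p = 0.0369 in limma). That call ended without any 1 of the 6 libraries (adjusted p of 0.0508 without WT replicate 4 to 0.133 without KO replicate 1), with equal library medians (0.0619) and with totals without the 10 most abundant genes (0.0862). It also ended with replicate number as a block (0.105). Parp1, the main nuclear ADP-ribosyltransferase, had WT and KO levels of 6.25 ± 0.944 and 6.88 ± 1.09 RPKM (SD, n = 3 each) and an adjusted p of 0.567 in limma. Of the genes tested without passing, Tnks2 alone was higher in every KO library than in any WT library. Its means were 4.07 RPKM in WT and 4.95 RPKM in KO (limma adjusted p = 0.0672). Sirt2 alone was lower in every KO library, with means of 5.13 and 4.43 RPKM (limma adjusted p = 0.141). The mitochondrial sirtuin Sirt4, just under the filter, was at 0.987, 0.974 and 0.986 RPKM in WT and at 0.570, 0.622 and 0.750 RPKM in KO. Its adjusted p was 0.0235 in the limma fit with no filter, and this was not tried under another scaling. Neither Cd38 nor Sarm1, both NAD glycohydrolases, was listed.

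Among regulators that have been linked to Nampt or Nmrk2, 13 were tested, of which Prkag3 and Ppargc1a were higher in KO (2 genes) and Arntl and Nr1d1 lower (2 genes). Prkag3, the AMP-activated kinase subunit of fast muscle, was at 10.4, 16.8 and 19.7 RPKM in WT and at 30.2, 24.0 and 30.9 RPKM in KO. Its groups did not overlap, and the log2 difference was 0.85 (SE 0.21, adjusted p = 0.03 in limma). The call ended without WT replicate 3 (adjusted p = 0.0632), KO replicate 1 (0.0995) or KO replicate 3 (0.11). The catalytic subunits Prkaa1 (limma adjusted p = 0.0876) and Prkaa2 (0.894) did not pass. Ppargc1a, a coactivator of mitochondrial genes, ranged from 1.37 to 2.26 RPKM in WT and from 3.51 to 5.49 RPKM in KO, with means of 1.77 ± 0.449 and 4.34 ± 1.03 (SD, n = 3 each). Its groups did not overlap, and the log2 difference was 0.94 (SE 0.16, adjusted p = 0.0082 in limma).

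Clock genes bear on Nampt, which the CLOCK and BMAL1 proteins are known to drive. Arntl, the gene of BMAL1, was at 2.90, 1.93 and 1.75 RPKM in WT and at 1.27, 1.09 and 0.972 RPKM in KO. Its log2 difference was -0.58 (SE 0.13, adjusted p = 0.022 in limma), and the call ended without KO replicate 1 (adjusted p = 0.0512), 2 (0.0672) or 3 (0.0912). Nr1d1, the repressor of Arntl, was at 10.1, 9.33 and 8.41 RPKM in WT and at 5.96, 6.44 and 5.67 RPKM in KO. All its KO values were below all its WT values, with a log2 difference of -0.55 (SE 0.09, adjusted p = 0.00764 in limma). Per2, a repressor of the clock, was below the filter with WT libraries at 0.335 ± 0.0735 RPKM and KO libraries at 0.969 ± 0.0593 RPKM (SD, n = 3 each), all KO values above all WT values. In the limma fit with no filter it had an adjusted p of 0.00171. Clock was also below the filter, at 0.976 ± 0.132 and 0.648 ± 0.0333 RPKM, with an adjusted p of 0.0329 in that limma fit. Neither Per2 nor Clock was tried under another scaling. The other clock genes of the list did not pass in limma. Per1 had a log2 difference of 0.00 (adjusted p = 0.98 in limma) and Nr1d2, a relative of Nr1d1, one of 0.12 (adjusted p = 0.301 in limma). Cry1 and Cry2, which encode repressors, had differences of -0.21 and -0.40 (adjusted p = 0.112 and 0.13 in limma). Per3 was below the filter and had overlapping groups, with an adjusted p of 0.376 in the limma fit with no filter, and Npas2 was not listed. The hour at which muscles were taken is not stated in the labels, and Nampt itself showed overlapping groups.

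**Figure D3:**
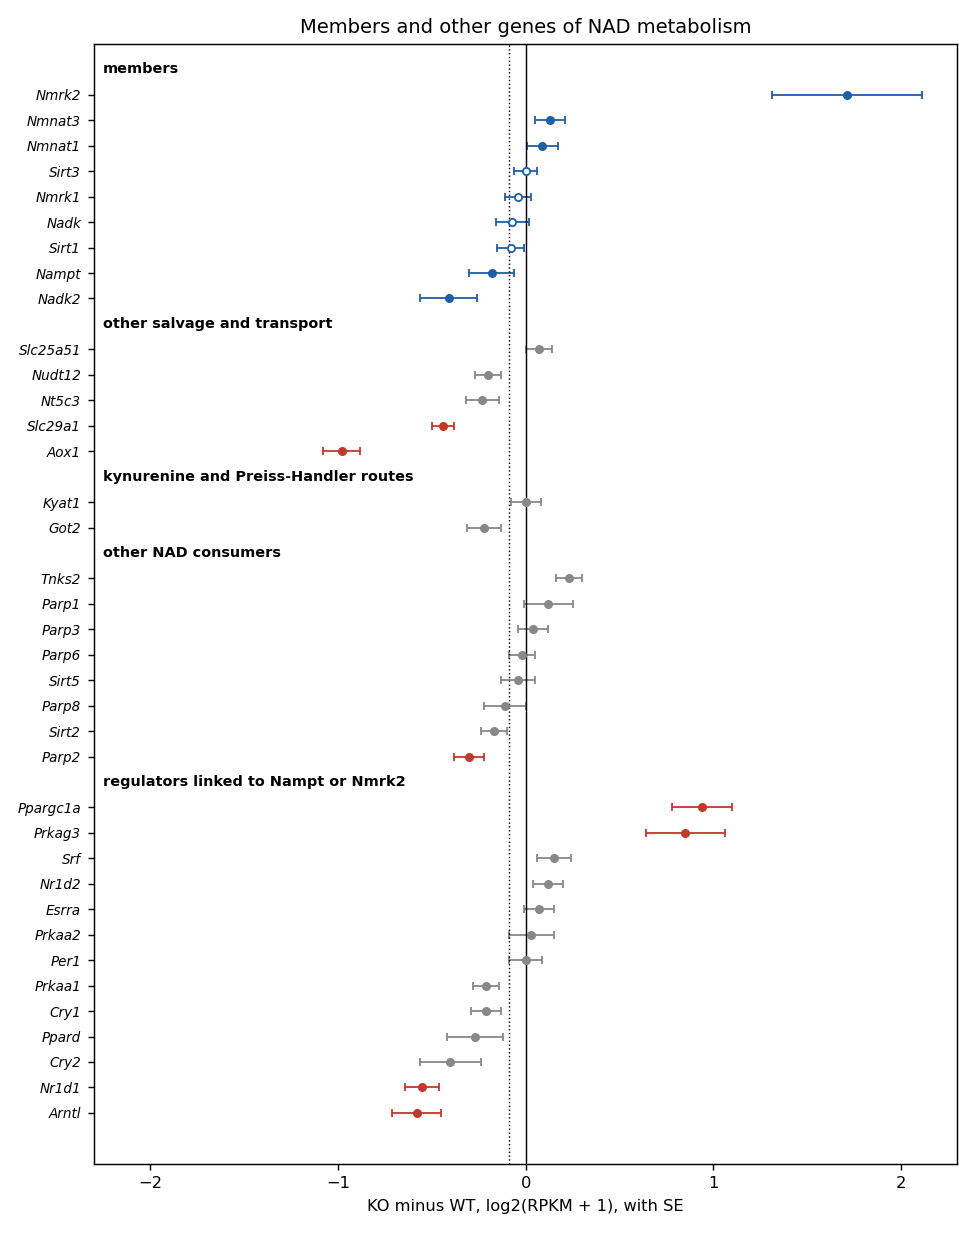
Difference between KO and WT on the log2(RPKM + 1) scale with its SE for the 9 members (blue; open circles were below the filter) and the 28 other tested genes (red where the limma adjusted p was under 0.05, grey otherwise). The dotted line is the median of all tested genes, -0.09. Nmrk2 lies at 1.71, and the other members lie between -0.41 and 0.13.

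The genes whose profile over the 6 libraries was most like that of Nmrk2 were Ighm, Amd1, Igfbp5, Nrep and Amd2. Likeness was the root mean square difference between profiles of log2(RPKM + 1), each set to its own mean, over all other tested genes. It was 0.29 for Ighm, an immunoglobulin heavy chain, 0.40 for Amd1, 0.42 for Igfbp5 and Nrep, and 0.44 for Amd2. Amd1 encodes the decarboxylase that supplies polyamine synthesis, and Amd2 is a close copy of it, so reads may be shared between them. All 5 had their highest WT value in replicate 4, as Nmrk2 did, which the choice by likeness largely fixed. Ighm was at 4.62, 2.67 and 9.28 RPKM in WT and at 21.6, 12.5 and 17.3 RPKM in KO. Amd1 was at 46.8, 54.5 and 80.5 RPKM in WT and at 149, 124 and 155 RPKM in KO. Of the members, none came near, with differences from Nmrk2 of 0.97 for Nmnat1 and Nmnat3 to 1.28 for Nadk2. Each of these profiles mixes the step between genotypes with the spread inside them, so the measure is a description only.

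**Figure D4:**
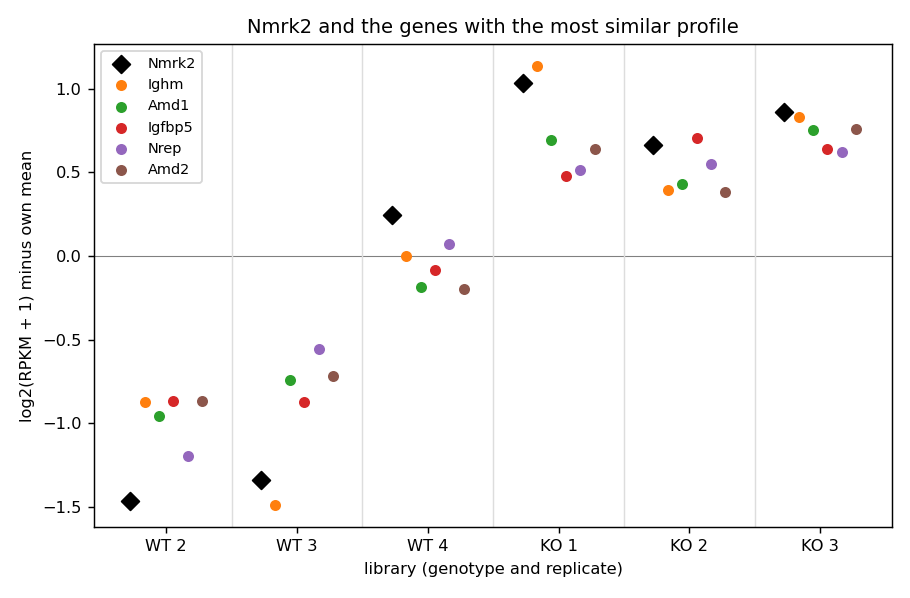
Value in each library (x axis, WT replicates 2 to 4 then KO replicates 1 to 3) of Nmrk2 (black diamonds) and the 5 genes most like it, as log2(RPKM + 1) minus the gene's mean over the 6 libraries. All 6 genes are lowest in WT replicates 2 and 3, between in WT replicate 4 and highest in the KO libraries, a shape largely fixed by the choice.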

How the data were processed

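RNA of WT and lnc-ORA KO gastrocnemius was fragmented and copied with random primers, per the labels' protocols, and the titles gave genotype and replicate. The genome build was GRCm39, per the submitters' processing notes. The aligner, the counter, the annotation and the use of strand were not given in the sources used here. The authors deposited RPKM per gene and library; the unit was inferred from the values, since multiplying RPKM by a length per gene and a total per library returned whole reads (within 0.02) in all 6 libraries for 11814 of 11815 genes, 80.3% of those in GENCODE M21 with its lengths. Log2 fold change, log2 CPM, an F score, p-value and FDR columns of the authors' own comparison, named per the file headers, were not used for any test.

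limma 3.58.1 (R 4.3.3) with a mean-variance trend was fitted to log2(RPKM + 1) with no term but genotype. It took in the 7574 genes that reached 1 RPKM in 3 or more libraries, and p-values were adjusted over all of these by Benjamini-Hochberg (threshold 0.05). This is the form that was planned for values other than counts. The log2 scale with a pseudocount understates the change of low genes. Differences are KO minus WT and SDs are of RPKM. Members and lists were chosen with earlier results of these data known. Named were all members and the 5 genes nearest Nmrk2. From each list the genes that passed were named (up to 6, by size of difference) or, with none, the one with the smallest p. Others (Slc25a51, Nudt12, Nt5c3, Kyat3, Parp1, Tnks2, Sirt2, Sirt4, Prkaa1, Prkaa2, Clock, Per1, Per2, Per3, Nr1d2, Cry1 and Cry2) were chosen after their values were seen. Coordinates and shared sequence come from GENCODE M21 (GRCm38), not the build of the notes. Python 3.11.15, pandas 2.3.3, numpy 2.4.6 and matplotlib 3.10.9 did the rest.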

Additional observations from a re-analysis of the deposited data

How the results depend on the processing

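The log2 difference of Nmrk2 kept its direction under every alternative run. It was 1.40 to 2.26 with each library left out, where all KO values above all WT values fixed the direction in advance. Nmrk2 kept its limma call without WT replicate 4 and lost it without any 1 of the other libraries. The members were chosen with this contrast known, so nothing is read from that call. The Nmrk2 difference was 1.71 to 1.83 with a pseudocount of 0.1, no filter or equal library medians. It was 1.85 with totals without the 10 most abundant genes and 1.80 with limma-voom on recovered reads. The ratio of Nmrk2 to Nmrk1 in KO over that in WT ranged from 2.63 to 5.67 with each library left out. Called genes numbered 1311, and 471 to 1637 with each library left out; called pathway genes numbered 7, 4 to 7 with each left out and 11 with no filter. With equal library medians 594 genes were higher and 707 lower. Of the 5 genes nearest Nmrk2, 4 were shared with the 5 found by the largest difference in any library. Numbers 2 and 3 are shared by both genotypes, and deviations of same-numbered libraries correlated at 0.48 and 0.27. Unlike-numbered pairs ranged from -0.39 to 0.43, the latter for WT replicate 4 and KO replicate 1. The numbers were not taken to pair the libraries. With replicate number as a replicate block, 1548 genes and 7 pathway genes were called and the Nmrk2 difference was 2.16. In that fit WT replicate 4 and KO replicate 1 were alone in their blocks. The block differences therefore rest on replicates 2 and 3 of each genotype. The members below the filter (Nmrk1, Nadk, Sirt1 and Sirt3) were fitted only with no filter, and at 121 to 317 reads per library small differences were not detectable. That fit called 378 genes higher and 1469 lower. Kyat3, Sirt4, Clock and Per2 were called in it alone, with no other scaling or left-out library tried.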

Other observations

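The authors' deposited table gives a log2 fold change of 1.18 for Nmrk2, while the ratio of the 6 library means corresponds to 1.55. Over all 11815 genes the authors' deposited log2 fold change was higher than the log2 ratio of means by a median of 0.14, and 111 genes departed from that median by more than 0.5. Nmrk2 thus went against the direction of that median, while for every other member the authors' deposited value was the higher. AY036118, chosen after its values were seen, lay between 210 and 239 RPKM in every library, yet the authors' deposited table gives it a log2 fold change of -3.29. These fold changes therefore cannot be had from the 6 library columns alone, and the steps behind them were not given in the sources used here.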
